A study of Homo sapiens with 4 samples.

Results

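Peaks of lactylated histone H4 on human chromosome 19 in SH-SY5Y cells, a neuroblastoma line, were taken from the 2 deposited peak lists by chromosome alone. The WT list held 127 of them among 1937 peaks on chromosomes 1 to 22, X and Y, and the DNAJC12KO list held 177 among 2743, so 304 peaks in all are described. The series comprises 4 libraries, an input and an H4K5la immunoprecipitation from WT cells and the same pair from cells labelled DNAJC12KO, a knockout of the gene for an HSP40-family co-chaperone. Each genotype thus has 1 immunoprecipitated library and 1 peak list, which leaves no replicate. The labels give no treatment or time, and do not say how the knockout was made or whether the cells came from 1 clone. Intervals below are 95% exact intervals (Clopper-Pearson for shares, Poisson for densities). They cover counting error only, treat peaks as independent and do not include variation between cultures, so no test between genotypes was possible.

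H4K5la is lactate joined as a lactyl group to lysine 5 of histone H4, a mark on the histone tail that has been linked to active chromatin and to the cell's supply of lactate from glycolysis. Chromosome 19 is known for its high density of genes. Its outermost short-arm band, 19p13.3, holds closely packed genes of many functions, whereas several other stretches are tandem clusters of zinc finger genes, most of them encoding KRAB repressors that bind transposable elements. The bodies and 3′ ends of those zinc finger genes are known in many cell types for repressive H3K9 trimethylation.

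Few promoter windows were touched by a peak. RefSeq promoter windows (GRCh38.p14, 250 bases before to 50 bases after the start) were listed for 1185 of the 1410 coding genes of chromosome 19, as 1548 windows. One window met a WT peak and 4 met a DNAJC12KO peak. The windows are short, and the number expected from even placement was not computed. Of the chromosome's bases, 12.3% lie within 3 kb of a listed start. Centred there were 7.09% of WT peaks (3.29 to 13.0%) and 13.6% of DNAJC12KO peaks (8.88 to 19.5%), and both intervals include 12.3%. The 5 touched windows are printed below because they are the only listed promoters that a peak touched. They read 5′ to 3′ on the gene's own strand, with the bases inside the peak in capitals.
ADM5: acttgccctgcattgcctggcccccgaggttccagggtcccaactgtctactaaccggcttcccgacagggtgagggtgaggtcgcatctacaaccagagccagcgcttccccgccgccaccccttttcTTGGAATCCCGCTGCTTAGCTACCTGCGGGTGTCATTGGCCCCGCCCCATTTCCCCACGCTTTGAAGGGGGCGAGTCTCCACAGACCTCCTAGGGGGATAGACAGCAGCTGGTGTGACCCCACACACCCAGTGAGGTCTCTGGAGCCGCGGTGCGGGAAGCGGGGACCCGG
HDGFL2: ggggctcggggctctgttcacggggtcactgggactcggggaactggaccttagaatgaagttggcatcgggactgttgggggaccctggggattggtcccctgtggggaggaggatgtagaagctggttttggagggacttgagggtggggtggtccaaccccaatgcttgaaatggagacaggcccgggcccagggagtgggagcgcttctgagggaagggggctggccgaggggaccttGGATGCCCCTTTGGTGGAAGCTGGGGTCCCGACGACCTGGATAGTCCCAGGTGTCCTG
LRRC4B: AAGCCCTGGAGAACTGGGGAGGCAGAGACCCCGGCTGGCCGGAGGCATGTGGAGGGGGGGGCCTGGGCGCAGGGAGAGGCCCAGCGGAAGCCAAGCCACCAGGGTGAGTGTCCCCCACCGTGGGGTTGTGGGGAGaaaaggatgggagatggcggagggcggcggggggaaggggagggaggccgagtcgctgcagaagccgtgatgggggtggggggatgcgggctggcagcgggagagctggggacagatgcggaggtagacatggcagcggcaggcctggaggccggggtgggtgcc
LOC124904770: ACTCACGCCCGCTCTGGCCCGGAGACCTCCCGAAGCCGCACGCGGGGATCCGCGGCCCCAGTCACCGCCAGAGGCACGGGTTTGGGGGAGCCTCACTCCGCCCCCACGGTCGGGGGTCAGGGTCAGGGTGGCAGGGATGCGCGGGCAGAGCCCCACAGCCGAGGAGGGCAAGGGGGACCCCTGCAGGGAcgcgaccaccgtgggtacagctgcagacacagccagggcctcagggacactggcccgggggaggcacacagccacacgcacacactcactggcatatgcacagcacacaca
VSTM2B: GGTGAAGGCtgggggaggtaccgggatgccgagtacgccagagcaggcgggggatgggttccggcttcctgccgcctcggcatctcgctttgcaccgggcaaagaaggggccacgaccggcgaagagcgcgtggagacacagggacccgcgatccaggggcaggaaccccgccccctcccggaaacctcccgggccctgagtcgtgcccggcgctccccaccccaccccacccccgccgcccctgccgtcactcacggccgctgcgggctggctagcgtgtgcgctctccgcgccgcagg

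ADM5, an adrenomedullin-family gene, has its window at chr19:49689344-49689643 on the plus strand, and the DNAJC12KO peak at chr19:49689473-49689765 held 171 of its bases, the start included. HDGFL2, whose PWWP domain reads methylated histone H3, has its window at chr19:4473704-4474003 on the plus strand, where the WT peak took in 58 bases and the start. At LRRC4B, a synaptic adhesion gene read from the minus strand (chr19:50550993-50551292), the DNAJC12KO peak covered 135 upstream bases and ended before the start. LOC124904770 (chr19:54416852-54417151, plus strand) had 189 bases inside a DNAJC12KO peak, also without its start. VSTM2B (chr19:29525168-29525467, plus strand) was touched over 9 bases. The G+C content of the 5 windows was 64.3%, 63.3%, 71.7%, 71.0% and 73.7% in that order, against a median of 63.3% over the 1548 windows and 60.7% over 293 windows of zinc finger genes.

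Relative to its genes, chromosome 19 was not rich in peaks. It held 6.56% of WT peaks (95% interval 5.49 to 7.75%) and 6.45% of DNAJC12KO peaks (5.56 to 7.44%), while 7.10% of the 19866 coding genes lie on it, a share inside both intervals. Per 100 coding genes there were 9.01 WT peaks and 12.6 DNAJC12KO peaks, beside 9.81 and 13.9 on all other chromosomes. Chromosome 17 carried 24.9 and 34.1, chromosome 22 14.4 and 19.4, and chromosome 16 12.5 and 15.6. Per Mb of sequence the order differed: chromosome 19 had 2.17 WT and 3.02 DNAJC12KO peaks, more than chromosome 16 (1.17 and 1.46) or 22 (1.24 and 1.67) and fewer than chromosome 17 (3.46 and 4.75). The peaks were short, with median widths of 442 bp (WT) and 452 bp (DNAJC12KO), and each list covered little of the chromosome, 58.9 kb and 91.8 kb.

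Every peak carries the authors' own fold enrichment, a ratio of signal to background, and a −log10 q from the peak caller. WT folds on chromosome 19 ran from 3.299 to 4.88 with a median of 3.92, where WT peaks of other chromosomes had a median of 3.81. In the DNAJC12KO list they ran from 3.22 to 5.06 with a median of 3.76, beside 3.68 elsewhere. A fold of at least 4 was reached by 50 WT peaks (39.4%, 30.8 to 48.4%), against 27.5% of WT peaks elsewhere (25.5 to 29.6%). The same held for 39 DNAJC12KO peaks (22.03%, 16.2 to 28.9%), where the share elsewhere was 16.99% (15.6 to 18.5%), an interval that overlaps. Most calls lay near the threshold: 16 WT and 18 DNAJC12KO peaks had a −log10 q of 2 or more. Neither list had a peak within 3 kb of DNAJC12, the targeted gene on chromosome 10, so the lists do not check the knockout, nor do peaks identify the cell type.

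The terminal band 19p13.3 held a share of the peaks far above its share of genes. Its 6.9 Mb make up 11.8% of the chromosome and carry 203 coding genes, 14.4% of the total, yet 66 WT peaks (52.0%, 42.9 to 60.9%) and 71 DNAJC12KO peaks (40.1%, 32.8 to 47.7%) were centred there. That is 32.5 WT peaks per 100 coding genes (25.1 to 41.4) and 34.98 DNAJC12KO peaks (27.3 to 44.1). The zinc finger clusters were at the other extreme. Zinc finger genes were taken by symbol alone (ZNF, ZFP, ZSCAN, ZIK, ZIM or ZBTB followed by a number), with no check for a KRAB domain. Joining those at most 500 kb apart into groups of at least 8 gave 7 clusters over 15 Mb. The clusters hold 242 of the chromosome's 268 zinc finger genes among 348 coding genes. Only 7 WT peaks (5.51%, 2.24 to 11.03%) and 13 DNAJC12KO peaks (7.34%, 3.97 to 12.2%) were centred in them, which is 2.01 per 100 genes (0.809 to 4.14) and 3.74 (1.99 to 6.39). The remaining 36.7 Mb, with 859 coding genes, held 54 and 93 peaks, or 6.29 (4.72 to 8.20) and 10.8 (8.74 to 13.26) per 100 genes.

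**Figure D1:**
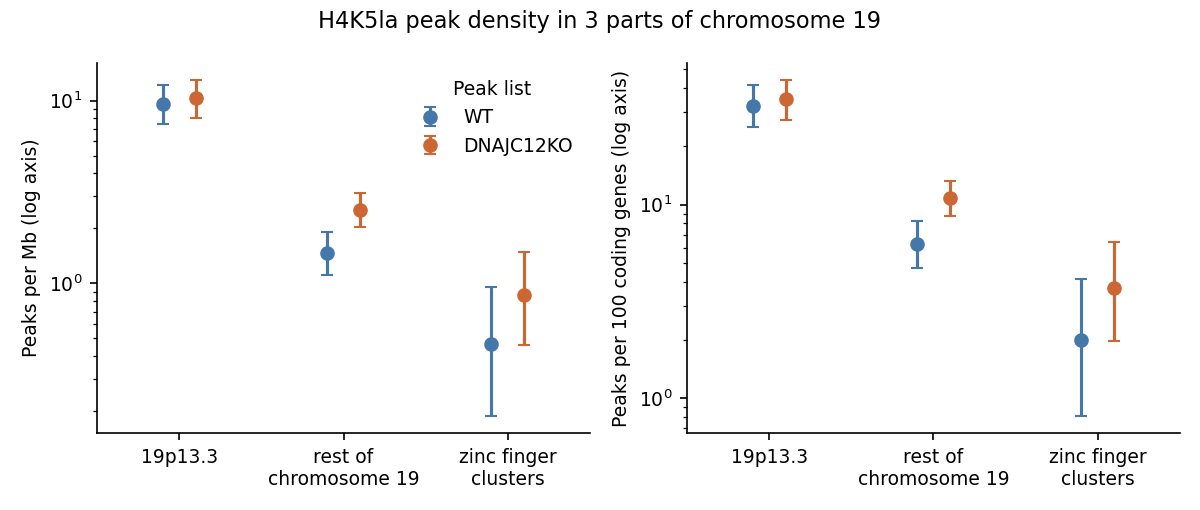
Peaks per Mb (left) and per 100 coding genes (right), both on log axes, for 19p13.3, the 7 zinc finger clusters and the rest of chromosome 19. Points are single peak lists and bars are 95% Poisson intervals. In each list and on either scale the 19p13.3 interval lies above those of both other regions, and the interval of the clusters lies below that of the rest.

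Gene density differed far less than peak density. 19p13.3 has 29.4 coding genes per Mb, the zinc finger clusters 23.2 and the rest 23.4, whereas WT peaks per Mb were 9.57, 0.467 and 1.47 and DNAJC12KO peaks per Mb were 10.3, 0.866 and 2.53. Within each list the median fold was close among the regions, at 3.90 in 19p13.3, 3.93 in the clusters and 3.95 in the rest for WT, and 3.76, 3.89 and 3.75 for DNAJC12KO. Across 59 bins of 1 Mb, peak number tracked gene number loosely (WT Pearson coefficient 0.33, Spearman coefficient 0.52; DNAJC12KO 0.38 and 0.46). Counting only genes outside the zinc finger family gave 0.44 and 0.66 for WT and 0.50 and 0.63 for DNAJC12KO. These are descriptions across neighbouring bins of 1 chromosome in single lists, whose mappability and base composition were not measured here.

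Along the chromosome the peaks were concentrated near the short-arm end, without a steady decline from that end. The first 5 Mb held 62 WT peaks (48.8%, 39.9 to 57.8%) and 57 DNAJC12KO peaks (32.2%, 25.4 to 39.6%), with 160 coding genes, 11.3% of the total. By Mb from the end, the first 7 bins counted 13, 10, 13, 15, 11, 4 and 0 WT peaks. The DNAJC12KO list had 6, 17, 17, 11, 6, 9 and 5 in the same bins. With all peaks counted, the DNAJC12KO list had 71 against 66 WT peaks in 19p13.3, a ratio of 1.08, and 106 against 61 on the rest of the chromosome, a ratio of 1.74. For the chromosome as a whole the ratio was 1.39, near the 1.42 of all other chromosomes. It turned to 0.78 where only peaks with a fold of at least 4 were counted, and the contrast between the regions then ended, with 18 against 24 peaks in 19p13.3 (ratio 0.75) and 21 against 26 outside (0.81). At a −log10 q of at least 2 the order of the ratios turned, to 11 against 7 peaks in 19p13.3 (1.57) and 7 against 9 outside (0.78). With the DNAJC12KO list shortened to the length of the WT list by −log10 q, 130 of its peaks remained on chromosome 19, 54 in 19p13.3 (0.82) and 76 outside (1.25).

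**Figure D2:**
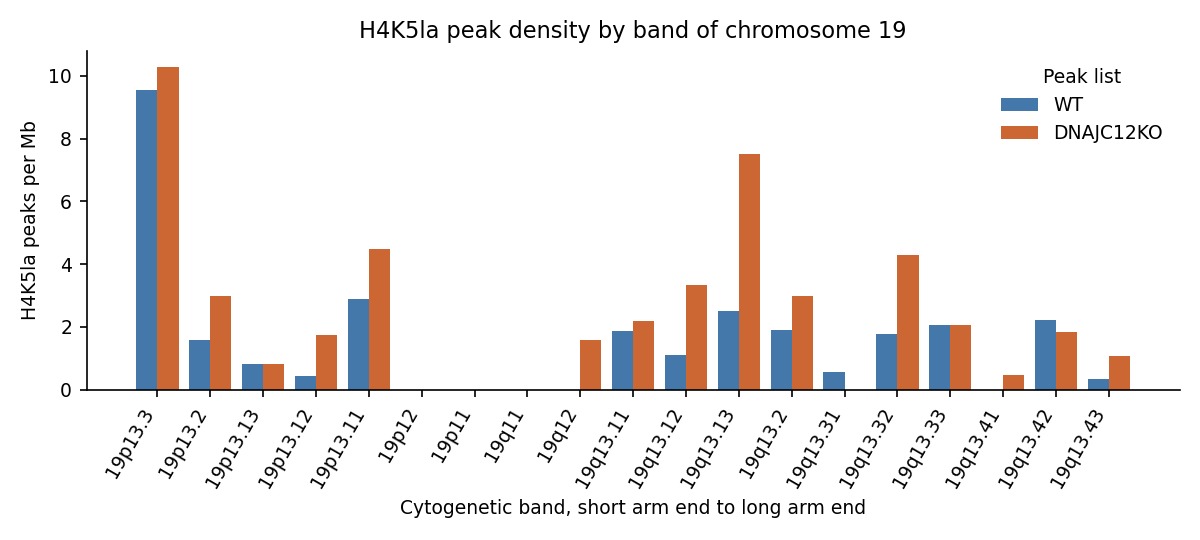
H4K5la peaks per Mb in each cytogenetic band of chromosome 19, from the end of the short arm to the end of the long arm, for the WT and DNAJC12KO lists. 19p13.3 stands highest at 9.57 and 10.3 peaks per Mb; the bar for 19q13.13 rests on 1 WT and 3 DNAJC12KO peaks in 0.4 Mb.

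Beyond 19p13.3, the bands with the next most peaks per Mb among those over 1 Mb long were 19p13.11 (11 WT and 17 DNAJC12KO peaks in 3.8 Mb) and, in the DNAJC12KO list, 19q13.32 (5 and 12 peaks in 2.8 Mb). No peak of either list lay in 19p12, which holds 35 coding genes, most of them zinc finger genes, or in the bands around the centromere, 19p11 and 19q11, which hold no coding gene. The longest stretch without a WT peak was 13.7 Mb and held 69 coding genes, 39 of them zinc finger genes. In the DNAJC12KO list the longest such stretch was 9.38 Mb, with 40 coding genes, 37 of them zinc finger genes. Of the 59 bins, 28 had no WT peak, 17 had no DNAJC12KO peak and 15 had neither. Those 15 bins held 185 coding genes, 118 of which belong to the zinc finger family. The short arm had 88 WT and 110 DNAJC12KO peaks and the long arm 39 and 67.

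In 19q12, a band of 3.8 Mb with 9 coding genes, the DNAJC12KO list had 6 peaks and the WT list none. One of them, at chr19:30520492-30521196 (fold 3.65), lay inside ZNF536, a zinc finger repressor of neuronal differentiation outside the clusters, and another was the peak that touched the VSTM2B promoter. The remaining peaks of the band were away from coding genes, such as chr19:30091579-30091938 (fold 3.91), 74967 bp from URI1. None of the 6 had a −log10 q of 2 or more, the highest being 1.68, and a place without a WT call may lie just under the authors' threshold. This band was singled out after its values were seen.

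Inside the zinc finger clusters as drawn with the 500 kb gap, the peaks lay mainly in genes outside the zinc finger family. The WT list placed 2 of its 7 cluster peaks in a zinc finger gene. One was in ZNF653 (chr19:11497958-11498251, fold 4.37) and the other in ZNF274 (chr19:58210002-58210569, fold 3.64), whose protein is known to recruit the H3K9 methyltransferase SETDB1 to zinc finger genes. The other 5 were in ARHGAP33 with 2 of them, in CADM4, a cell adhesion gene, in the splicing factor gene U2AF2, and in EPN1, an endocytic adaptor gene. DNAJC12KO peaks lay in the zinc finger genes ZNF266 (fold 4.31), ZBTB32 (fold 3.89), ZNF787 (fold 3.61) and ZNF497 (fold 3.91). The remaining 9 of 13 were in KMT2B, an H3K4 methyltransferase gene with 2 peaks, ARHGAP33 with 2, KIRREL2, WDR62, U2AF2, EPN1 and SLC27A5. The cluster of 19q13.12, where 30 zinc finger genes lie among 58 coding genes, took 2 WT and 7 DNAJC12KO peaks. It starts at ZBTB32, the only zinc finger gene among 49 coding genes between 35 and 36 Mb. The peaks in KMT2B, ARHGAP33 and KIRREL2 lie in that Mb. The cluster of 19q13.42 and 19q13.43, the one with the most zinc finger genes (72 of 106 coding genes), took 3 and 5. The clusters of 19p13.11 to 19p12 and of 19q13.41 to 19q13.42, with 37 and 41 zinc finger genes, had no peak in either list. Joined at 200 kb instead of 500 kb, the clusters held 2 WT and 4 DNAJC12KO peaks in all.

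Counted by gene, 2 of 268 zinc finger genes had a WT peak in the gene record or within 3 kb of it (0.746%, 0.0905 to 2.67%). Other coding genes had one in 103 of 1142 cases (9.02%, 7.42 to 10.8%). In the DNAJC12KO list it was 7 zinc finger genes (2.61%, 1.06 to 5.31%) and 145 others (12.7%, 10.8 to 14.8%). No zinc finger gene had a peak in both lists, where 43 of all 1410 coding genes did. With only 2 and 7 of the 268 marked, this absence is uninformative. Other coding genes inside the clusters as drawn fell between: of 106, 4 had a WT peak (3.77%, 1.04 to 9.38%) and 9 a DNAJC12KO peak (8.49%, 3.96 to 15.5%). Among them, ARHGAP33 in both lists and KMT2B, IGFLR1, KIRREL2 and WDR62 in the DNAJC12KO list lie in the stretch next to ZBTB32. These shares rest on the 500 kb gap and were not recomputed at 200 kb. The median record was 23.3 kb for zinc finger genes and 12.6 kb for other coding genes on the chromosome, and an effect of length was not tested. All 268 were counted. Zinc finger genes are paralogs with near-identical stretches, so calls and absences at any 1 of them are uncertain, and mappability was not measured here.

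Over all 1410 coding genes, 53 had a WT peak within 3 kb of either end of the record (3.76%, 2.83 to 4.89%), beside 3.2% of coding genes genome-wide. For DNAJC12KO it was 80 (5.67%, 4.52 to 7.01%), beside 3.86%. Peaks of both lists were found at the ends of 9 of these 1410 genes, beside 160 of 19866 coding genes genome-wide (0.805%). The 9 make up 16.98% of the WT genes and 11.3% of the DNAJC12KO genes. Genome-wide, the 160 stand beside 636 WT genes and 766 DNAJC12KO genes, a larger shared part of each list than on chromosome 19. Counting the whole record widened by 3 kb, 105 genes had a WT peak (7.45%, background 6.49%) and 152 a DNAJC12KO peak (10.8%, background 8.26%). Inside 19p13.3 those shares were 23.2% and 24.6% of 203 genes, and outside it 4.81% and 8.45% of 1207.

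Most peaks lay inside genes. By the centre of the peak, 35 WT peaks (27.6%) and 60 DNAJC12KO peaks (33.9%) lay within 3 kb of a gene end and 85 (66.9%) and 110 (62.1%) deeper inside a coding gene. Outside annotated genes lay 6 peaks of each list, 4.72% (1.75 to 10.0%) of WT and 3.39% (1.25 to 7.23%) of DNAJC12KO, against 10.9% and 15.7% on the other chromosomes. Of the chromosome's bases, 22.5% are within 3 kb of a gene end, 40.1% inside a coding gene and 28.8% outside genes. Within 3 kb of a listed start there were 9 WT peaks (7.09%, 3.29 to 13.0%) and 24 DNAJC12KO peaks (13.6%, 8.88 to 19.5%), where 12.3% of bases lie. The median distance to the nearest listed start was 10.4 kb and 10.2 kb.

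Along the gene the peaks lay toward the 3′ end. The records were cut into successive stretches of 25% of their length, for 96 WT and 129 DNAJC12KO peaks centred in exactly 1 coding gene of known strand. The stretch at the 3′ end held 39 (40.6%, 30.7 to 51.1%) and 54 (41.9%, 33.2 to 50.9%) of these peaks. The stretch at the 5′ end held 12 (12.5%) and 20 (15.5%). Even spacing would put 25% in each stretch, and the intervals of the 3′ stretch lie above that. The same tilt was present on the other chromosomes, where the 3′ stretch held 36.8% of 1098 WT peaks and 40.6% of 1430 DNAJC12KO peaks. In 19p13.3 it held 41.5% (28.1 to 55.9%) and 41.8% (28.7 to 55.9%), and in the DNAJC12KO list on the rest of the chromosome 41.9% (30.5 to 53.9%). Of WT peaks outside 19p13.3, 17 of 43 lay in the 3′ stretch (39.5%, 24.98 to 55.6%, an interval that includes 25%). As many, 17, lay in the second stretch from the 5′ end. The interval of that second stretch overlaps the one for WT peaks in 19p13.3 (8.07 to 29.8%). It lies above those for DNAJC12KO peaks outside the band (5.71 to 21.8%) and WT peaks of other chromosomes (19.01 to 23.95%). A difference in form was not tested.

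**Figure D3:**
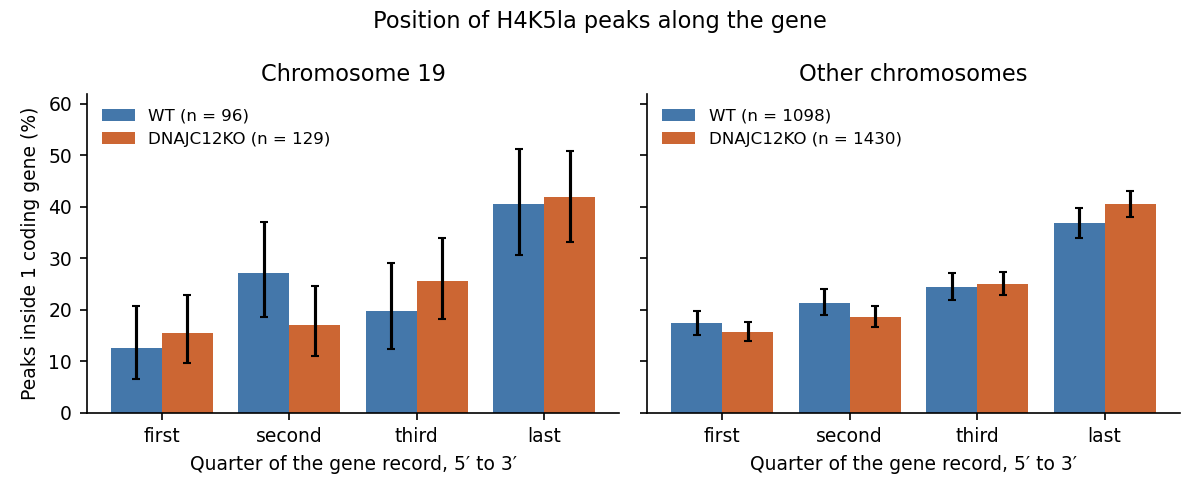
Share of peaks in each stretch of 25% of the gene record from 5′ to 3′, for peaks centred in 1 coding gene of known strand, on chromosome 19 (left) and other chromosomes (right). Bars are single lists with 95% Clopper-Pearson intervals; the 3′ stretch is the tallest in all 4 sets, at 40.6% and 41.9% on chromosome 19.

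The genes with the most peaks inside the record lay mainly in 19p13.3 and were long. PIP5K1C, which encodes a kinase that makes phosphatidylinositol 4,5-bisphosphate at synapses and adhesions, held 8 WT peaks along 70.3 kb, with folds from 3.53 to 4.42, and 2 DNAJC12KO peaks (3.56 and 4.15). LMNB2, for the nuclear lamina protein lamin B2, held 3 of each, with WT folds of 3.86, 4.01 and 4.16 and DNAJC12KO folds of 3.73, 4.03 and 3.28. DOT1L, the H3K79 methyltransferase gene, held 3 WT peaks (4.08, 3.602 and 3.61) and 2 DNAJC12KO peaks (3.75 and 3.46). These 3 genes thus carried peaks in both lists, PIP5K1C with more in the WT list.

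Other genes leaned the opposite way. REXO1, of an RNA exonuclease family, held 1 WT peak (fold 3.65) and 4 DNAJC12KO peaks (5.06, 4.54, 4.65 and 4.30). KDM4B, an H3K9 demethylase gene of 184.5 kb, held 1 WT peak (3.82) and 4 DNAJC12KO peaks with folds from 3.22 to 4.20. Next came 8 genes tied at 4 peaks over both lists, of which the 3 with the highest fold are SBNO2, a helicase-family transcriptional coregulator gene with 2 of each list, SMARCA4 and SIPA1L3. SMARCA4, the ATPase gene of SWI/SNF chromatin remodellers in 19p13.2, held 1 WT peak and 3 DNAJC12KO peaks, and so did SIPA1L3, of a family of Rap GTPase activators on the long arm (WT 4.17; DNAJC12KO 3.64, 3.83 and 4.55). The other 5 were MLLT1, ARHGAP33, SPPL2B, MAP2K2 and GNA11. Among them MLLT1, for a reader of acylated histone lysines in transcription elongation complexes, was singled out after its values were seen: it held no WT peak and 4 DNAJC12KO peaks (4.13, 4.49, 3.71 and 3.86). Peaks of 1 gene share their locus and library and are not replicates, so none of these counts tests a difference.

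The peaks of highest −log10 q lay on both arms of the chromosome. At a −log10 q of at least 2, 7 of 16 WT and 11 of 18 DNAJC12KO peaks were in 19p13.3. In the WT list the 5 highest were in SMARCA4 (chr19:11021657-11021946, fold 4.87, −log10 q 2.83), RNF126, a ubiquitin ligase gene (fold 4.88, −log10 q 2.74), GPI, the glycolytic enzyme glucose-6-phosphate isomerase (4.87 and 2.502), LRP3, a lipoprotein receptor family gene (4.68 and 2.46), and PAK4, a serine/threonine kinase gene (4.70 and 2.25). The SMARCA4 peak stood at rank 19 of the whole WT list. In the DNAJC12KO list the highest was in REXO1 (chr19:1817068-1818225, fold 5.06, −log10 q 3.41), at rank 6 of that list. SBNO2 followed (5.05 and 2.95), then MED26, a Mediator subunit gene (4.94 and 2.84), the overlapping genes YIF1B and C19orf33 (4.77 and 2.51) and NDUFS7, for a subunit of respiratory complex I (4.75 and 2.47). None of these 10 peaks overlapped a peak of the other list. Of all chromosome 19 peaks only 8.66% (WT) and 6.21% (DNAJC12KO) did, so this absence among 10 says little. The gap to the nearest peak of the other list ran from 2426 bp at SMARCA4 to 625103 bp at GPI.

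The lists shared 11 places on chromosome 19, which is 8.66% of WT peaks (4.403 to 14.97%) and 6.21% of DNAJC12KO peaks (3.14 to 10.8%). Over all chromosomes 8.88% of WT peaks and 6.31% of DNAJC12KO peaks overlapped one of the other list, so the sharing was close to the background. Of the 11 places, 10 were inside coding genes and 1 lay between FGF22 and RNF126. In 19p13.3 there were 7, and in the zinc finger clusters 2. Within 19p13.3, 10.6% of WT peaks were shared (4.37 to 20.6%), against 3.70% (0.452 to 12.7%) in the rest outside the clusters, and these intervals overlap. Allowing 10 kb between peaks raised the counts to 42 WT peaks (33.1%, 24.98 to 41.97%) and 39 DNAJC12KO peaks (22.03%, 16.2 to 28.9%), beside 40.7% (38.4 to 42.97%) and 30.3% (28.5 to 32.1%) on the other chromosomes.

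**Figure D4:**
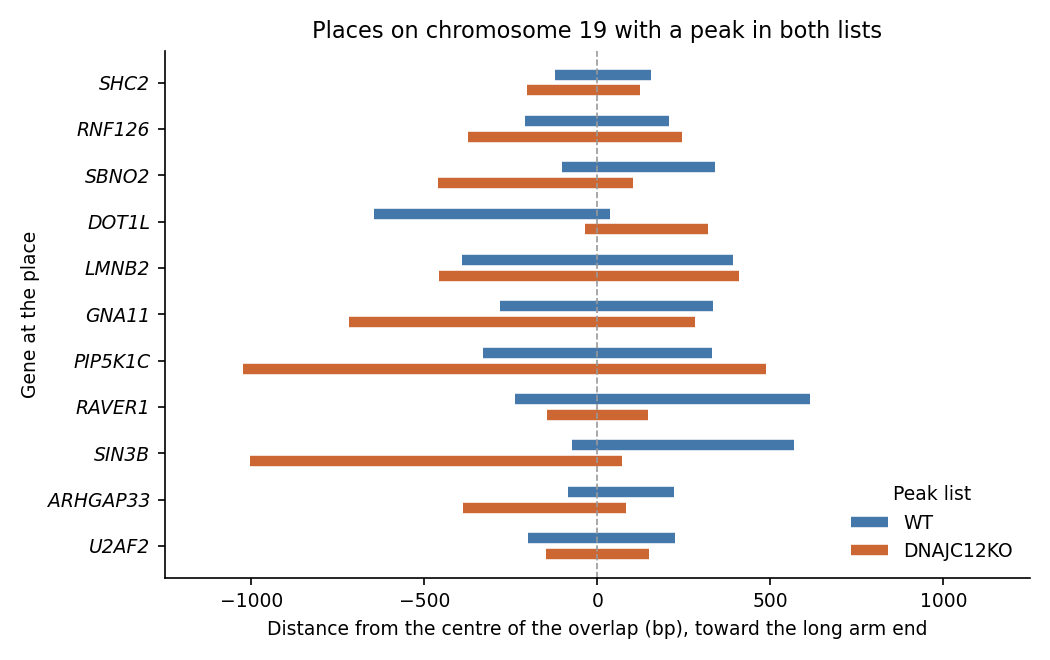
Extent of the WT and DNAJC12KO peaks at the 11 places where they overlapped, in bp from the centre of the overlap, labelled by the gene that holds it or, for RNF126, lies nearest, in chromosome order. The overlap ran from 72 bp at DOT1L to 785 bp at LMNB2, where the whole WT peak lay inside the DNAJC12KO peak.

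At LMNB2 the WT peak chr19:2442915-2443699 (fold 4.01, −log10 q 1.59) and the DNAJC12KO peak chr19:2442850-2443718 (fold 4.03, −log10 q 1.70) overlapped over 785 bp. PIP5K1C had its shared place near 1 end of the gene, at chr19:3631909-3632571 in WT (fold 4.42) and chr19:3631216-3632729 in DNAJC12KO (fold 3.56). RNF126 and its neighbour FGF22, a growth factor gene of presynaptic differentiation, lay on either side of a place with 418 bp in common (WT fold 4.57, DNAJC12KO fold 3.601). SHC2, an adaptor of receptor tyrosine kinases, shared 245 bp (3.65 and 4.19), and GNA11, a Gq-family G protein subunit gene, 565 bp (3.97 and 3.81). SBNO2 shared 206 bp (3.79 and 3.55) and DOT1L 72 bp (3.602 and 3.46).

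Outside 19p13.3 the shared places were in RAVER1, an RNA-binding protein gene (293 bp, WT fold 3.59, DNAJC12KO fold 3.61), and SIN3B, a corepressor scaffold gene (146 bp, 3.73 and 3.71). In the clusters they were in ARHGAP33 (169 bp, 3.74 and 4.36) and U2AF2 (297 bp, 3.96 and 3.69). At 5 of the 11 places the overlap covered at least 50% of both peaks. Folds of different lists rest on separate backgrounds and unknown depths, so the 2 values of a place are given side by side and were not compared. None of the 11 places had a −log10 q of 2 or more in both lists.

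Of the 9 genes with end peaks in both lists, PIP5K1C, ARHGAP33, RNF126 and FGF22 had overlapping peaks there. At HDGFL2 and PLIN4, a lipid droplet protein gene, which overlap each other, and at NKPD1 and its neighbour TRAPPC6A, for a vesicle tethering subunit, the peaks of the lists lay 0.53 kb apart. LMNB2 had end peaks at opposite ends of the gene. Among genes with an end peak in the WT list alone, the highest −log10 q belonged to LRP3 and SLC7A10, an amino acid transporter gene (1 peak, 2.46), KLHL26 (2.22), and SHFL with ANGPTL6 (1 peak, 2.1998). In the DNAJC12KO list alone they were REXO1 (3.41), MED26 (2.84), YIF1B with C19orf33 (2.51), and GAMT, for the last enzyme of creatine synthesis, with its neighbour NDUFS7 (1 peak, 2.47).

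Among the gene lists, chromatin regulators had the largest share with a peak in the record or within 3 kb. Of 38 members, 11 had a WT peak (28.9%, 15.4 to 45.9%) and 14 a DNAJC12KO peak (36.8%, 21.8 to 54.0%), 9 of them in both, beside 7.45% and 10.8% of all coding genes of the chromosome. The 9 were ARID3A, DOT1L, ELL, GATAD2A, HDGFL2, KDM4B, MED25, SMARCA4 and SUPT5H. In 19p13.3, which holds 17 of the 38, 6 and 5 members had a peak (35.3% and 29.4%), beside 23.2% and 24.6% of all coding genes there. Outside the band it was 5 and 9 of 21 (23.8% and 42.9%), beside 4.81% and 8.45% of all coding genes there. The lists were put together with earlier results of these lists known and their members are longer than average (median 23.7 kb against 14.5 kb for all coding genes), so the shares describe these genes and test nothing.

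Signalling genes followed, with 8 WT and 12 DNAJC12KO members of 47 (17.02% and 25.5%). In 19p13.3 it was 7 of 15 in each list, among them SHC2, FGF22, GNA11, PIP5K1C and, in the WT list only, STK11, the tumour suppressor kinase LKB1 (fold 4.08). Of all coding genes in the band, 23.2% and 24.6% had a peak. Outside the band it was 1 and 5 of 32 signalling genes (3.1% and 15.6%), beside 4.81% and 8.45% of all coding genes there. Of 37 genes of glycolysis and energy, 6 had a WT peak and 7 a DNAJC12KO peak. They included GPI and the phospholipase gene PNPLA6 (fold 4.43) in WT, NDUFS7 in DNAJC12KO, and PLIN4 in both. Of 43 ion channel and synapse genes, 6 (14.0%, 5.30 to 27.9%) and 7 (16.3%, 6.81 to 30.7%) had one. They included SHANK1, a postsynaptic scaffold gene (WT fold 4.66), and RAB3D, of vesicle release (WT fold 4.07). The P/Q-type calcium channel gene CACNA1A (DNAJC12KO fold 4.26) was another, and NRTN, for the neurotrophic factor neurturin, was in both (4.29 and 3.83). For energy genes and for ion channel and synapse genes, the intervals include the 7.45% (WT) and 10.8% (DNAJC12KO) of all coding genes of the chromosome.

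Transcription factors outside the zinc finger family had 5 of 44 in each list (11.4%, 3.79 to 24.6%). Among them were ARID3A, NFIC and TCF3 in both and CIC, a repressor gene, in DNAJC12KO (fold 3.97). Muscle and motor protein genes had 3 and 5 of 28. LMNB2, the nuclear lamina gene, was counted here, and it and the myosin gene MYO9B had peaks in both peak lists. The tropomyosin gene TPM4 had one in WT (fold 4.15) and the dynamin gene DNM2 in DNAJC12KO (fold 3.95). Ribosomal protein genes had 1 WT peak, near RPL36 (fold 4.46), and none for DNAJC12KO, of 14. Adhesion and immune receptor genes had 0 (0 to 7.55%) and 1 (2.13%, 0.0539 to 11.3%) of 47, the DNAJC12KO peak lying at NKG7, a gene of cytotoxic lymphocyte granules (fold 3.61). These intervals, too, include the 7.45% and 10.8%. The adhesion genes CADM4 and LRRC4B, which had peaks, were counted with the ion channel and synapse genes instead.

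The tandem gene families of the chromosome carried no peak in either list. These were 15 kallikrein genes, 20 olfactory receptor genes, 22 genes of the CEACAM and PSG families, 27 of the KIR, LILR and SIGLEC families and 12 cytochrome P450 genes of CYP2 and CYP4F. With none observed, the upper 95% bounds are 21.8%, 16.8%, 15.4%, 12.8% and 26.5%, so for each family taken singly the chromosome's 7.45% and 10.8% lie within the interval. Nor did a peak overlap any of 130 miRNA hairpins on the chromosome, while 2 lay within 3 kb of a WT peak and 3 within 3 kb of a DNAJC12KO peak. Hairpins and peaks are both short and the number expected from even placement was not computed, so this absence is not read as avoidance.

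**Figure D5:**
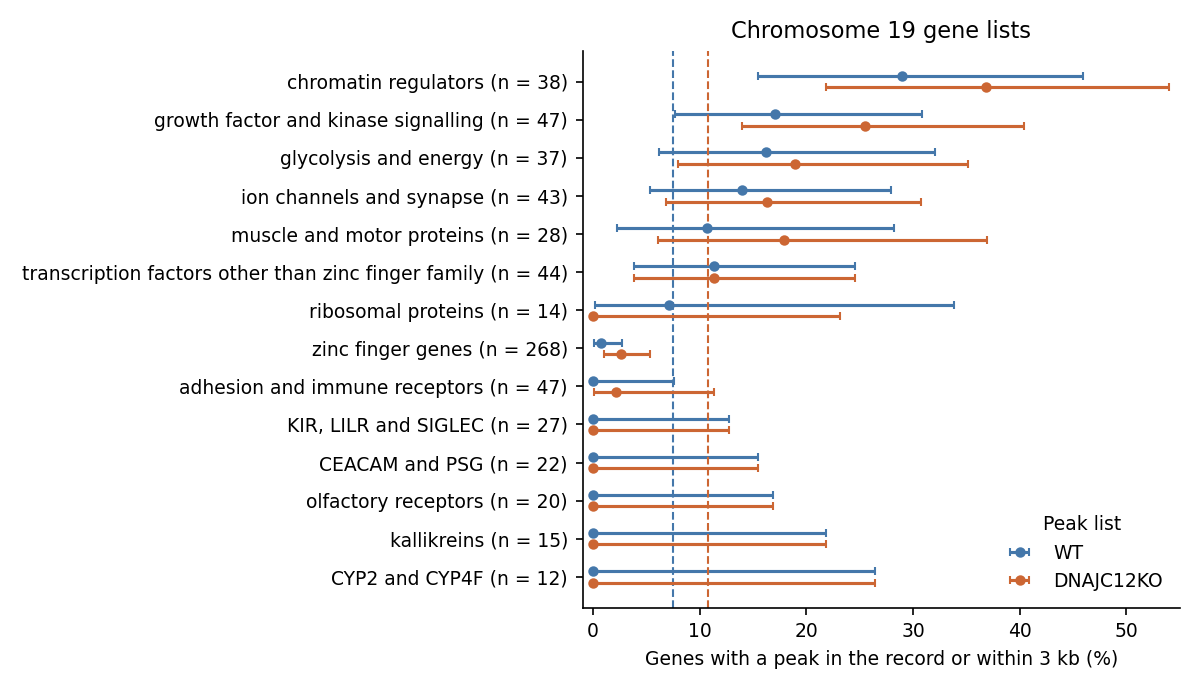
Share of each gene list with a peak in the gene record or within 3 kb of it, in the WT and DNAJC12KO lists, with 95% Clopper-Pearson intervals. Dashed lines mark all 1410 coding genes of chromosome 19 (7.45% and 10.8%); chromatin regulators stand at 28.9% and 36.8% and zinc finger genes at 0.746% and 2.61%.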

How the data were processed

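ChIP-seq of H4K5la in SH-SY5Y cells gave 4 libraries, an input and an immunoprecipitation for each genotype. The build was hg38 and the tool named was MACS2 2.2.6, per the submitters' processing notes. Not given in the sources used here are the aligner, the peak-calling options, the role of the input and any scaling to the spike-in chromatin, and the control IgG named in the labels' protocols was not used here. The authors deposited 1 broad peak list per genotype, each of which has 1 immunoprecipitated library, with a fold enrichment (a linear ratio over background), a −log10 q and a −log10 p for each peak, which the broad format of MACS2 reports as averages over the peak. The lists hold no counts, so depth is unknown. Unequal depth or copy number would alter how many peaks are called. Columns of other samples numbered 0.

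Each list was taken as its genotype's immunoprecipitation because the descriptions name it for that genotype. Peaks were kept where the chromosome is 19. Genes came from RefSeq on GRCh38.p14 (58961 records, 19866 coding, on chromosomes 1 to 22, X and Y), without alternate or unlocalized sequences. The record table gives no strand or exons, so the main window was 3 kb around either gene end, and strand and starts came from the promoter table, which is not complete. Peaks were shared where they overlapped by at least 1 bp. Coordinates are 1-based. Python 3.11.15, numpy 2.4.6, pandas 2.3.3, scipy 1.17.1 and matplotlib 3.10.9 were used. The overlap steps were tested on simulated data and checked against bedtools 2.31.1.

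Genes were named by rule: the 8 with most peaks of both lists in the record (ties by highest fold, then symbol), those with end peaks in both lists, the 5 of highest −log10 q at an end in either list alone, up to 4 per gene list, the 5 highest peaks of each list, and all shared places. Genes in the zinc finger clusters and in 19q12, genes tied at the end of the first rule, and full member names of a list, were added after their values were seen. The members, gene lists and rules were chosen with earlier results of these data known. Stricter thresholds, equal list lengths, merging, other windows, cluster gaps and overlaps were tried as alternatives.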

Additional observations from a re-analysis of the deposited data

How the results depend on the processing

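Of 79 values recomputed for 14 results, 36 stayed close to the value reported, 42 moved and 1 changed direction. The direction changed for the ratio of DNAJC12KO to WT peaks on chromosome 19, which was 0.78 with a fold of at least 4. That limit put the chromosome's share of all peaks at 9.12% (WT) and 8.21% (DNAJC12KO), the WT share in zinc finger clusters at 2.0%, and the shared peaks at 2.0% of WT and 2.56% of DNAJC12KO. Genes with an end peak then numbered 24 (WT), 18 (DNAJC12KO) and 1 (both), and zinc finger genes 0 and 1. A −log10 q of at least 2 left 16 and 18 peaks. WT then had 7.92% of its peaks on the chromosome and 0% of those in the clusters, DNAJC12KO had 61.1% in 19p13.3, and 0% of either list was shared. Genes with an end peak numbered 12 (WT), 11 (DNAJC12KO) and 0 (both), with 0 zinc finger genes in either list. Joining zinc finger genes at 200 kb put 1.57% of WT and 2.26% of DNAJC12KO peaks in clusters. An overlap of at least 50% of both peaks left 3.94% and 2.82% shared.

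Window choices decided the gene counts. Genes with a WT peak, a DNAJC12KO peak and both numbered 20, 36 and 0 at 1 kb, 133, 179 and 44 at 10 kb, 105, 152 and 43 over the widened record, and 12, 28 and 1 within 3 kb of a listed start. Zinc finger genes numbered 0 (WT) and 2 (DNAJC12KO) at 1 kb, 4 (WT) at 10 kb, 2 (WT) over the record, and 0 and 0 at listed starts, where fewer genes could be counted. The windows, the thresholds, the cluster gap and the overlap rule each change what is counted, and no other cause of the moved values was tested. No replicate could be left out, and depth limits every absence to a place below the authors' threshold. No paired analysis was possible because each genotype has 1 library and its values come from no test.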
